A study of Mus musculus with 10 samples.

Results

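The 9 genes described here regulate the mitochondrial pathway of apoptosis: Bcl2, Bcl2l1, Mcl1, Bax, Bak1, Bbc3, Pmaip1, Apaf1 and Casp9. They were taken by name from the 28125 genes of an scRNA-seq table and the 30670 genes of an scATAC-seq table, and all 9 were found in both. Nuclei of whole mouse testes had been profiled for RNA and open chromatin together, with 1 library per condition and assay. The conditions were wild-type C57BL/6J testes at 11, 17 and 25 days postpartum (dpp), and testes of Cre/+ and Nfya-CKO males at 8 weeks of age. Cre/+ males carried Stra8-Cre, which is active in male germ cells from the spermatogonial stage and was joined to the Stra8 gene with the fluorescent protein ZsGreen1 through 2A peptides. Nfya-CKO males carried the same Cre with floxed Nfya alleles (Nfya fl/fl; Stra8-Cre), from which the recombinase removes exons 5 to 6 in germ cells while somatic cells keep the gene. Nfya encodes the DNA-binding subunit of the transcription factor NF-Y, which recognises CCAAT boxes.

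Mitochondrial apoptosis is set by the balance between members of the BCL-2 family. BCL-2, BCL-XL (the product of Bcl2l1) and MCL-1 hold the effectors BAX and BAK in check, the BH3-only proteins PUMA (Bbc3) and NOXA (Pmaip1) oppose these guardians, and cytochrome c released through BAX and BAK pores joins APAF1 to form the apoptosome, which activates caspase-9. Germ cell death by this route is a normal part of spermatogenesis, and loss of Bax is known to leave an excess of early germ cells in the mouse testis.

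The tables hold 1 value per gene for each of 13 cell populations named by the study, with the cells of all libraries pooled: undifferentiated and differentiating spermatogonia (undiff. SpG, diff. SpG), preleptotene (pL), early leptotene to zygotene (eL/L/Z), leptotene to early pachytene (L/Z/eP), middle and late pachytene (mP/lP) and diplotene (D) spermatocytes, round and elongating spermatids (RS, ES), spermatogonia of the library labelled Nfya-CKO (SpG Nfya-CKO), Sertoli cells, other somatic cells and a population of unknown type. RNA is given as mean UMIs per 10000, with a 95% counting interval that covers counting error only. Because each condition is 1 library and the values are pooled, no p-value could be computed, and differences are described by size and set beside the share of all 15250 genes with a mean of at least 0.05 that differ as much. All 9 genes passed that limit.

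Several properties of the libraries bear on every comparison. SpG Nfya-CKO held 491 cells with a median of 18361 UMIs, all from the Nfya-CKO library, whereas undiff. SpG held 1292 cells with a median of 9290 UMIs, of which 92.0% came from juvenile testes and 7.89% from Cre/+. Genotype and age therefore cannot be told apart in that comparison. Mitochondrial genes took 0.953% of the RNA signal in undiff. SpG and 0.392% in SpG Nfya-CKO. RNA of Nfya itself was 0.456 UMIs per 10000 in undiff. SpG and 1.11 in SpG Nfya-CKO, so the label was not borne out by a lower level, although a value over the whole gene does not separate the deleted exons. By western blotting and immunohistochemistry of testes, the study reports NFYA protein as depleted from germ cells and kept in somatic cells. Undifferentiated spermatogonial markers summed to 22.0 and 19.9 UMIs per 10000 in these populations, above every other population, which reached at most 7.68. Of these 6 markers 3 were higher in SpG Nfya-CKO, with Uchl1 at 5.88 in undiff. SpG, 11.0 in SpG Nfya-CKO and 4.87 in other somatic cells. Zbtb16 (8.74 and 4.15), Sall4 (4.88 and 2.08) and Id4 (0.682 and 0.290) were lower. General germ cell markers summed to 21.3 and 12.02, and none of the 4 was higher in SpG Nfya-CKO. All 5 Leydig cell markers were higher in SpG Nfya-CKO, with a sum of 49.2 against 0.21 in undiff. SpG and 218.2 in other somatic cells. The 8 Sertoli markers summed to 26.4 in SpG Nfya-CKO and 5.59 in undiff. SpG (5 of 8 higher). Clu alone made 22.8 of the former, with 2.50 in undiff. SpG and 91.5 in other somatic cells, and the other 7 summed to 3.60 and 3.09. The 6 macrophage markers summed to 0.50 and 0.09 (6 of 6 higher), and the 5 peritubular and endothelial markers to 0.47 and 0.39 (4 of 5 higher). The 5 spermatid markers summed to 0.668 in undiff. SpG, 11.1 in diff. SpG, 0.0236 in pL and 0.113 in SpG Nfya-CKO, where none was higher than in undiff. SpG. The 5 spermatocyte markers summed to 7.72 in undiff. SpG and 7.31 in SpG Nfya-CKO, where 3 were higher. The others, Piwil1 (0.712 and 0.255) and Hspa2 (0.547 and 0.0643), were lower. The part of these transcripts and of the mitochondrial share in the results below was not tested, but the level of each regulator in other somatic cells is given beside its comparison.

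Cell barcodes were also shared between libraries. Of 39674 distinct barcodes, 5030 occurred in at least 2 libraries, including 3813 shared by Cre/+ and Nfya-CKO, 703 by 11 and 17 dpp, 621 by 11 and 25 dpp and 853 by 17 and 25 dpp. Of the 491 SpG Nfya-CKO cells, 175 had a barcode found elsewhere. In 143 of them the other cell was a Cre/+ cell placed in diff. SpG, with a median of 2378 UMIs against 21876 in the Nfya-CKO library, and in no pair did the partner hold more UMIs. Diff. SpG thus contained 143 such cells among 925 with a library name, each with the barcode of a SpG Nfya-CKO cell. In all, 454 of these 925 cells shared a barcode with another library, as did 712 of 1193 ES and 4119 of 5880 other somatic cells. Of 1291 undiff. SpG cells with a library name, 420 shared a barcode, and the partner held more UMIs in 16 of 616 pairs. Among the 102 undiff. SpG cells from Cre/+, 58 had a barcode of the Nfya-CKO library, each time of a cell placed in other somatic cells. The pooled tables do not allow the values to be recomputed without these cells.

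NF-Y sites were looked for in the RefSeq promoter windows of the regulators, which run from 250 bases before to 50 bases after a transcription start (GRCm38.p6, the same assembly as mm10). Windows were read for 8 of the 9 genes, 12 windows in all. The letters CCAAT, read on both strands, were present in 1 of the 12 windows, against 37.4% of 32851 windows of the same length. That window belonged to 1 of 3 Bbc3 starts (chr7:16310181-16310480, plus strand). The GC box core GGGCGG, likewise read on both strands and with overlapping copies counted, was present in 8 of 12 windows against 35.7% of all windows. Of these 8 windows 3 belonged to Bbc3, of which a pair overlap. Counted by gene, GGGCGG was present for 6 of 8 regulators against 38.2% of 27025 genes, and CCAAT for 1 of 8 against 41.1%. The regulators' windows had a GC content of 49.3% to 78.0%, and the median of all windows was 52.7%. These matches are descriptions of the letters, not of binding. The stretch of Bbc3 with the CCAAT letters on the opposite strand (ATTGG in capitals, chr7:16310321-16310350) and the bases upstream of Bax (chr7:45466904-45467148, minus strand), Casp9 (chr4:141793362-141793611, plus strand) and Bak1 (chr17:27028628-27028877, minus strand) are shown because the first holds the only CCAAT match, Bak1 had the widest range of scATAC signal, and Bax and Casp9 differed in RNA between spermatogonia. The bases upstream of Apaf1, with 3 GGGCGG copies in its window, lie in an exon of Ikbip on the opposite strand and are not printed. Capitals in the last 3 mark GGGCGG or CCGCCC.
Bbc3: acagccggttATTGGccccgcgcgcgctgg
Bax: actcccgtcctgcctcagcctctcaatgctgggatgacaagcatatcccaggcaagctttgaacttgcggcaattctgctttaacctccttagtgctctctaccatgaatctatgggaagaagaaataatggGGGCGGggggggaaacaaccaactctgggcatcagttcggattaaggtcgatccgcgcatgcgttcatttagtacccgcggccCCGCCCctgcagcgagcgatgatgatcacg
Casp9: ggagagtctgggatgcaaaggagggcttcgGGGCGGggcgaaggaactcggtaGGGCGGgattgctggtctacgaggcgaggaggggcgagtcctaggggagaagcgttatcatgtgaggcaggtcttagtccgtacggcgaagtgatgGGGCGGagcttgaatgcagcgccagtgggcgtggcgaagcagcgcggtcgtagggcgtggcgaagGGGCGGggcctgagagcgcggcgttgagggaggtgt
Bak1: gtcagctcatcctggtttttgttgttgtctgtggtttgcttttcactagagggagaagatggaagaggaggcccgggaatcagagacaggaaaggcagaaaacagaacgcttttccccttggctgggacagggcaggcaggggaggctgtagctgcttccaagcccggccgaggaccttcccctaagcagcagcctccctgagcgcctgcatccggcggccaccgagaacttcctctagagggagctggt

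Among the antiapoptotic genes, Bcl2l1 (gene ID 12048, chr2:152758732-152833803) was the most even across spermatogenesis. Its RNA was 1.33 UMIs per 10000 in undiff. SpG, 1.54 in diff. SpG, 1.14 in pL, 1.26 in eL/L/Z, 1.42 in L/Z/eP, 1.60 in mP/lP, 1.31 in D, 0.889 in RS and 1.37 in ES, a range of 1.80-fold. In that order of levels, every pair of neighbours had overlapping intervals except pL and RS, so that RS stood below the other germ cells (0.840 to 0.939). Cox4i2 overlaps 6308 bases of Bcl2l1 on the opposite strand, with RNA of at most 0.0989 in any population. Mcl1 (ID 17210, chr3:95656944-95663179) had 1.30 in undiff. SpG, 0.784 in diff. SpG, 1.44 in pL, 1.03 in eL/L/Z, 0.638 in L/Z/eP, 0.631 in mP/lP, 0.574 in D, 0.359 in RS and 0.784 in ES. Mcl1 was thus highest in pL and undiff. SpG, which were not separated by their intervals, and lowest in RS. It was higher still in Sertoli cells, at 1.68, and reached 2.41 in the 99 cells of unknown type.

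Bcl2 (ID 12043, chr1:106538176-106714290) was sparse in germ cells. Its RNA was 0.0246 UMIs per 10000 in undiff. SpG, where the value stands for about 22 UMIs, 0.0909 in diff. SpG, 0.0855 in pL and 0.00746 in mP/lP. Only mP/lP (0.0047 to 0.0113) lay below its neighbour beyond counting error. Sertoli cells had 0.174 and other somatic cells 0.151, both above all 9 germ cell populations. The 8 Sertoli markers summed to 41.2 in ES, where Bcl2 was 0.0788, to 16.6 in eL/L/Z, where it was 0.0723, and to 8.17 or less in the other germ cell populations outside SpG Nfya-CKO. Clu made 31.3 of the ES sum, and the other 7 markers summed to 9.87 in ES, 8.37 in eL/L/Z and 4.45 in pL.

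Of the effectors, Bax (ID 12028, chr7:45461695-45466903) had 1.67 UMIs per 10000 in undiff. SpG, 1.26 in diff. SpG, 1.91 in pL, 1.18 in eL/L/Z, 0.524 in L/Z/eP, 0.380 in mP/lP, 0.316 in D, 0.181 in RS and 0.391 in ES. The span from pL to RS was 10.6-fold, and only diff. SpG and eL/L/Z, and ES and mP/lP, were neighbours with overlapping intervals. Bak1 (ID 12018, chr17:27019812-27028627), which encodes the other pore-forming effector, ran the opposite way. Its RNA was 0.0219 in undiff. SpG, 0.0444 in diff. SpG, 0.0184 in pL, 0.0572 in eL/L/Z, 0.0856 in L/Z/eP, 0.141 in mP/lP, 0.136 in D, 0.111 in RS and 0.118 in ES. The premeiotic values stand for 19 to 22 UMIs each, and although neighbours in the order overlapped, mP/lP (0.128 to 0.155) and pL (0.0116 to 0.0278) did not. Over the 13 populations, log2 levels of Bax and Bak1 had a Pearson correlation of -0.67, given as a description over populations that share libraries. All 8816 bases of Bak1 lie inside Ggnbp1, a gene on the opposite strand whose own RNA was 0.946 in pL and 3.31 in mP/lP. Whether the counting used strand is not given in the sources used here, and the log2 levels of both genes had a correlation of 0.13 over the 13 populations.

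The 2 BH3-only genes peaked in different populations. Pmaip1 was highest in undiff. SpG, at 0.378 UMIs per 10000 (0.338 to 0.420), and lay between 0.0330 in RS and 0.0951 in eL/L/Z in the other 8 germ cell populations. Diff. SpG had 0.0762 and pL 0.0840. Bbc3 (ID 170770, chr7:16308398-16318334) was highest in RS, at 0.408 (0.375 to 0.442), followed by pL at 0.240 and diff. SpG at 0.188. Its level was 0.102 in undiff. SpG, 0.0962 in eL/L/Z, 0.162 in L/Z/eP, 0.0910 in mP/lP, 0.131 in D and 0.0712 in ES. The RS value of Bbc3 stood apart from pL beyond counting error, while all later neighbours in the order overlapped.

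The apoptosome genes were both higher in spermatogonia and pL than from mP/lP onward. Apaf1 (ID 11783, chr10:90989311-91082743) had 0.403 UMIs per 10000 in undiff. SpG, 0.558 in diff. SpG, 0.867 in pL, 0.650 in eL/L/Z, 0.415 in L/Z/eP, 0.173 in mP/lP, 0.194 in D, 0.125 in RS and 0.150 in ES. The pL value (0.816 to 0.921) exceeded all other germ cell populations beyond counting error. Casp9 (ID 12371, chr4:141793612-141815978) was highest in undiff. SpG, at 0.769 (0.712 to 0.829), with 0.276 in diff. SpG, 0.346 in pL, 0.270 in eL/L/Z and 0.140 to 0.197 from L/Z/eP onward. The last 1025 bases of Casp9 overlap Cela2a on the opposite strand, whose RNA was 0.246 in undiff. SpG and 0.0253 in mP/lP. Log2 levels of Casp9 and Cela2a had a correlation of 0.88 over the 13 populations. Pmaip1 and Casp9 had the closest profiles of the 36 pairs of regulators (Pearson correlation of 0.81), followed by Bax and Apaf1 (0.81), and Bak1 and Apaf1 were the most opposed (-0.84).

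**Figure D1:**
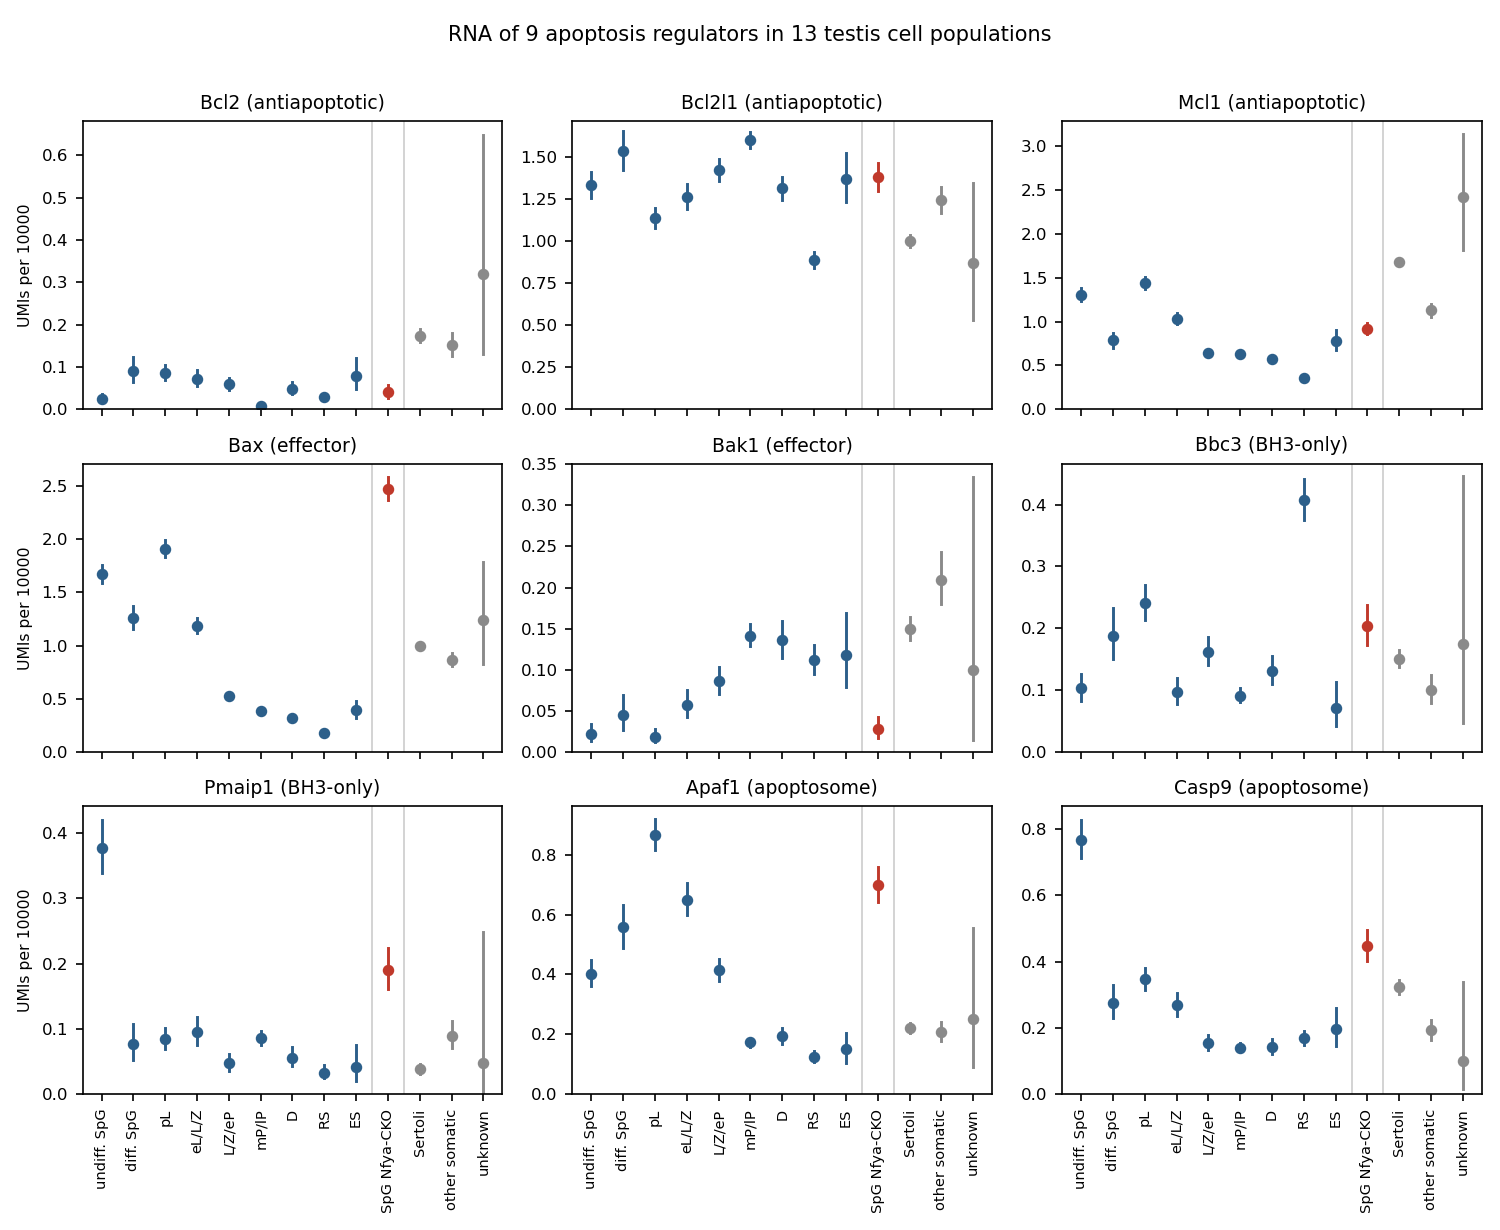
RNA of each regulator (UMIs per 10000, linear axis from 0) in 9 germ cell populations (blue), SpG Nfya-CKO (red) and somatic or unknown populations (grey), with bars for the 95% counting interval. Bax was highest of all 13 populations in SpG Nfya-CKO, at 2.48, while Pmaip1 and Casp9 were highest in undiff. SpG.

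By stage, 3 of the 9 regulators had their highest germ cell level in pL (Mcl1, Bax and Apaf1), against 17.8% of all genes, and 2 of 9 in undiff. SpG (Pmaip1 and Casp9), against 19.2%. The lowest level was in RS for 5 of 9, against 29.8% of genes. Between pL and mP/lP, 3 of the 9 regulators were at least 2-fold lower (Bax, Apaf1 and Mcl1, with log2 ratios of -2.07, -1.83 and -1.08), where 19.2% of all genes were. Bak1 was at least 2-fold higher (1.03), as were 15.6% of all genes. From undiff. to diff. SpG, Pmaip1 and Casp9 were at least 2-fold lower (-1.44 and -1.21), against 6.28% of all genes. Undiff. SpG was mostly juvenile and 84.5% of diff. SpG came from Cre/+ testes, so stage and age cannot be told apart there. Diff. SpG also held spermatid transcripts (Prm1 at 3.94, with 0.155 in undiff. SpG and 0.00525 in pL), whose part was not tested. Both genes were also lower in pL, which was 99.7% juvenile. From mP/lP to RS, Bbc3 was the 1 regulator at least 2-fold higher (1.41, against 17.6% of genes), and none was at least 2-fold lower (9.36% of genes). Log2 ratios here and below are of the level plus 0.1, which understates the change of genes near or under that value.

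Genes with the most similar profiles were listed by Pearson correlation of log2 levels over the 13 populations, among the 10385 or 10386 other genes with a mean of at least 0.2. For Bax these were Washc5 (0.99), Pip5k1c (0.98) and Cnnm3 (0.98), and for Apaf1 they were Zfyve9 (0.98), Heatr5b (0.97) and Slc20a1 (0.97). Mcl1 was most like Slc7a5 (0.97), Ctnnb1 (0.97) and Myl12b (0.96), and Casp9 most like Satb1 (0.95), Sall4 (0.95), an undifferentiated spermatogonial marker, and the piRNA precursor pi-Trim71.1 (0.95). Bcl2 was closest to Nr3c2 (0.96), Sh3rf1 (0.94) and Wbp1l (0.94), Bcl2l1 to Orc5 (0.92), Gtf2h4 (0.92) and Upf1 (0.91), and Bak1 to Gramd1b (0.92), Lama2 (0.92) and Pink1 (0.91). Pmaip1 matched Cd274 and Fbxo41 (both 0.94), the latter listed again with the same correlation as the piRNA precursor pi-Fbxo41.1. Bbc3 had the weakest best matches, with Ube2v2 (0.84), Acbd3 (0.83) and Akap10 (0.82). The populations share libraries and depth, and these correlations are descriptions.

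Open chromatin of the regulators was then followed across stages. Mitochondrial genes took 31.2% of the scATAC signal in pL and 63.8% in L/Z/eP, so levels across stages are given per 1000000 of signal on nuclear genes, a scale chosen after seeing the data. On it, the ratio of the highest to the lowest germ cell population had a median of 1.68 over the 9 regulators and 2.84 over 28139 genes. The same ratio for RNA, with 0.1 added to each level, was 3.36 over the regulators and 2.98 over all genes. Casp9 spanned 77.1 in RS to 103.1 in diff. SpG, Pmaip1 33.8 in L/Z/eP to 45.9 in D, and Bcl2l1 109.4 in undiff. SpG to 162.6 in L/Z/eP.

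Bak1 had the widest range of scATAC signal. It was 8.45 in undiff. SpG, 15.3 in diff. SpG, 7.86 in pL, 12.5 in eL/L/Z, 25.9 in L/Z/eP, 45.6 in mP/lP, 52.6 in D, 52.4 in RS and 58.8 in ES. The ES value is the least certain, as 23 of its 40 lowest scATAC values fitted a mean, over 53 cells, against 36 to 40 in the other germ cell populations. The mP/lP value was 5.80 times the pL value, and Bak1 was the 1 regulator at least 1.5-fold higher in that step, where 30.3% of genes were. Its signal followed its RNA over the 9 germ cell populations (Pearson correlation of 0.97), with the bases printed for Bak1 lying in an intron of Ggnbp1. Bcl2 and Bbc3 were at least 1.5-fold lower in mP/lP than in pL (42.7 to 19.9 and 54.2 to 33.7), as were 17.2% of genes. Bax went from 45.0 in undiff. SpG and 47.4 in diff. SpG to 29.4 in D, a smaller span than that of its RNA. The correlation with RNA was 0.82 for Apaf1, 0.73 for Bax, between 0.17 and 0.52 for Bcl2, Bcl2l1, Bbc3, Pmaip1 and Casp9, and -0.31 for Mcl1. With mitochondrial genes kept in the scale, the correlation turned to -0.18 for Bcl2l1 and 0.17 for Mcl1, was 0.61 for Casp9, where it had been 0.17, and was 0.89 for Bak1, 0.78 for Apaf1 and 0.65 for Bax.

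**Figure D2:**
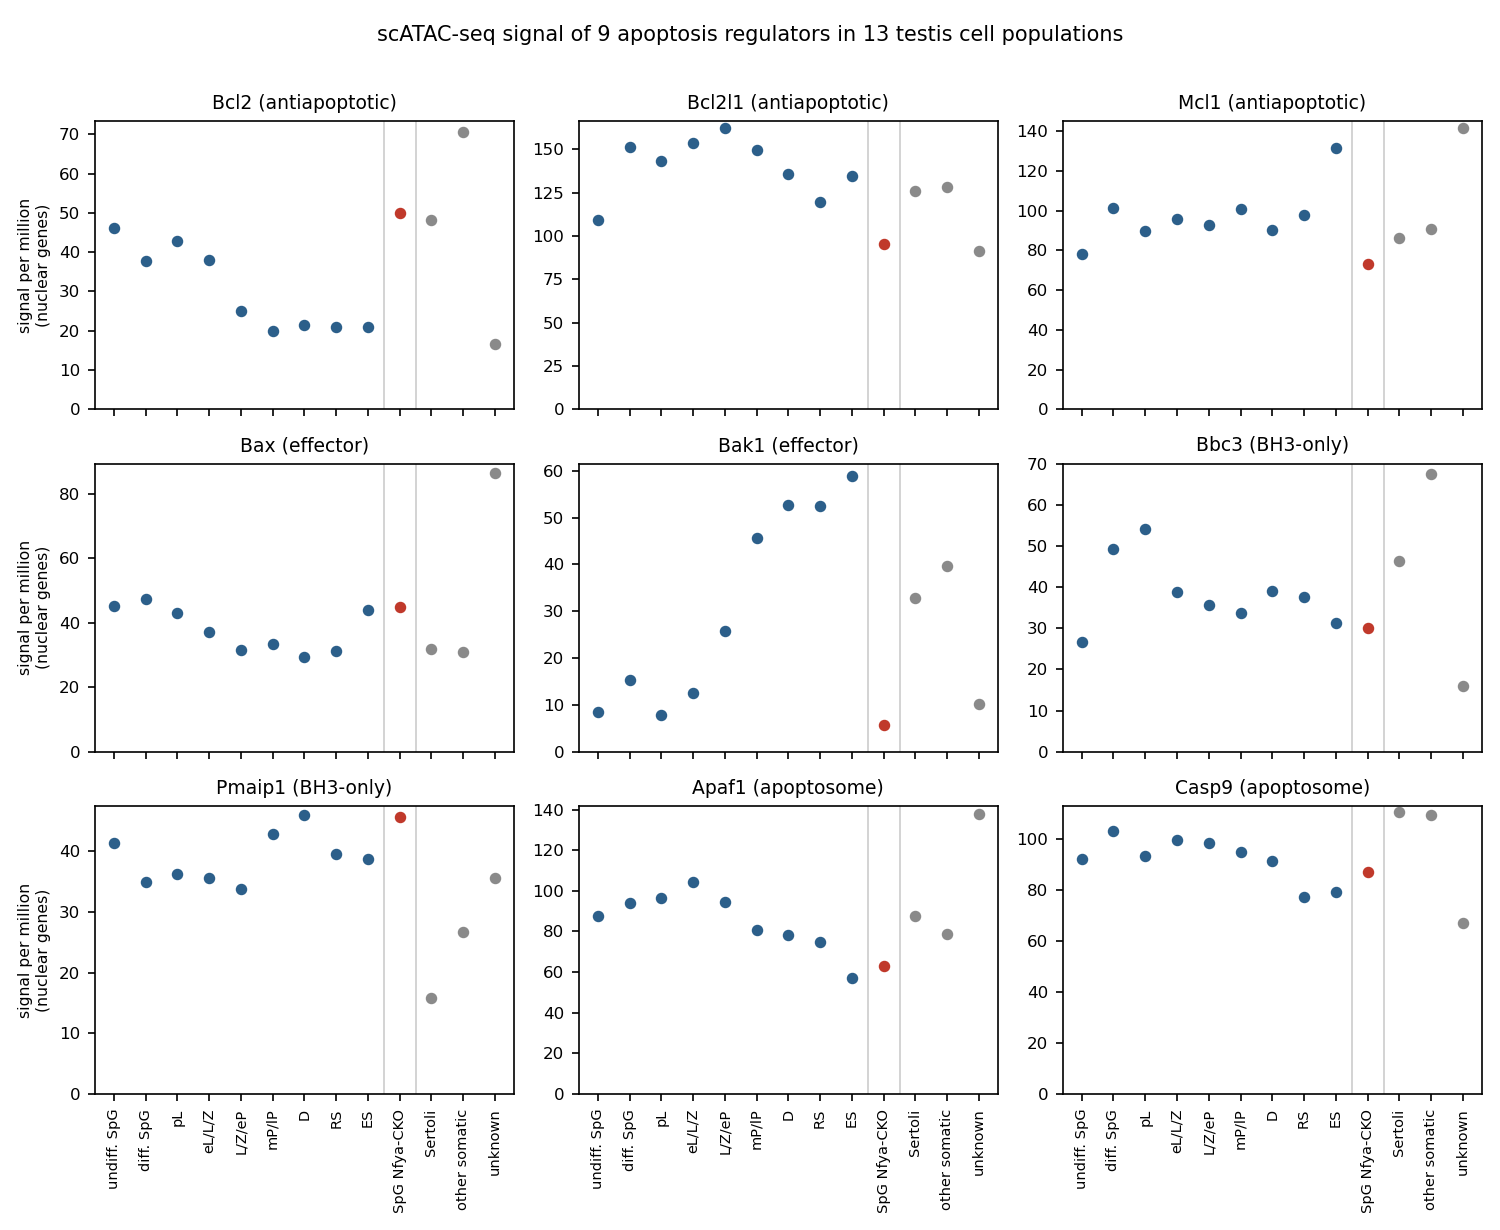
scATAC-seq signal of each regulator per 1000000 of signal on nuclear genes (linear axis from 0) in the same 13 populations and colours. No error is shown because the tables give no counts behind these values. Bak1 went from 7.86 in pL to 58.8 in ES, whereas Casp9 stayed between 77.1 and 103.1 in germ cells.

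SpG Nfya-CKO were then compared with undiff. SpG to ask how the RNA of these regulators differed in spermatogonia of the Nfya-CKO library. Bax, Bbc3 and Apaf1, which promote death, were higher. Bax was 1.67 UMIs per 10000 (1.59 to 1.76) in undiff. SpG and 2.48 (2.37 to 2.59) in SpG Nfya-CKO, 1.48 times as high with a counting interval of 1.38 to 1.58. Apaf1 was 0.403 (0.362 to 0.447) and 0.699 (0.642 to 0.760), a ratio of 1.73 (1.51 to 1.99). Bbc3 was 0.102 and 0.203, a ratio of 1.98 (1.52 to 2.60), from about 91 and 159 UMIs. In other somatic cells these genes had 0.864, 0.209 and 0.0999, so that all 3 levels in SpG Nfya-CKO exceeded those of both undiff. SpG and other somatic cells.

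Mcl1, Pmaip1 and Casp9 were lower in SpG Nfya-CKO, 1 antiapoptotic gene and 2 that promote death. Mcl1 was 1.30 (1.23 to 1.38) in undiff. SpG and 0.919 (0.853 to 0.989) in SpG Nfya-CKO, a ratio of 0.706 (0.642 to 0.775), below the 1.13 of other somatic cells as well. Pmaip1 was 0.378 and 0.190, a ratio of 0.504 (0.413 to 0.613), and Casp9 was 0.769 and 0.447, a ratio of 0.581 (0.509 to 0.662). For these 2 genes SpG Nfya-CKO lay between undiff. SpG and other somatic cells, which had 0.0897 and 0.193. Cela2a, which overlaps Casp9, was also lower, at 0.246 and 0.0950, and its part in the Casp9 value was not tested. Bcl2l1 differed little, with 1.33 and 1.38 (ratio 1.04, 0.953 to 1.13). For Bcl2 (0.0246 and 0.0403, ratio 1.64, 0.919 to 2.97) and Bak1 (0.0219 and 0.0277, ratio 1.27, 0.654 to 2.46), a difference was not detectable at this depth. Other somatic cells had 1.24 of Bcl2l1, 0.151 of Bcl2 and 0.209 of Bak1.

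**Figure D3:**
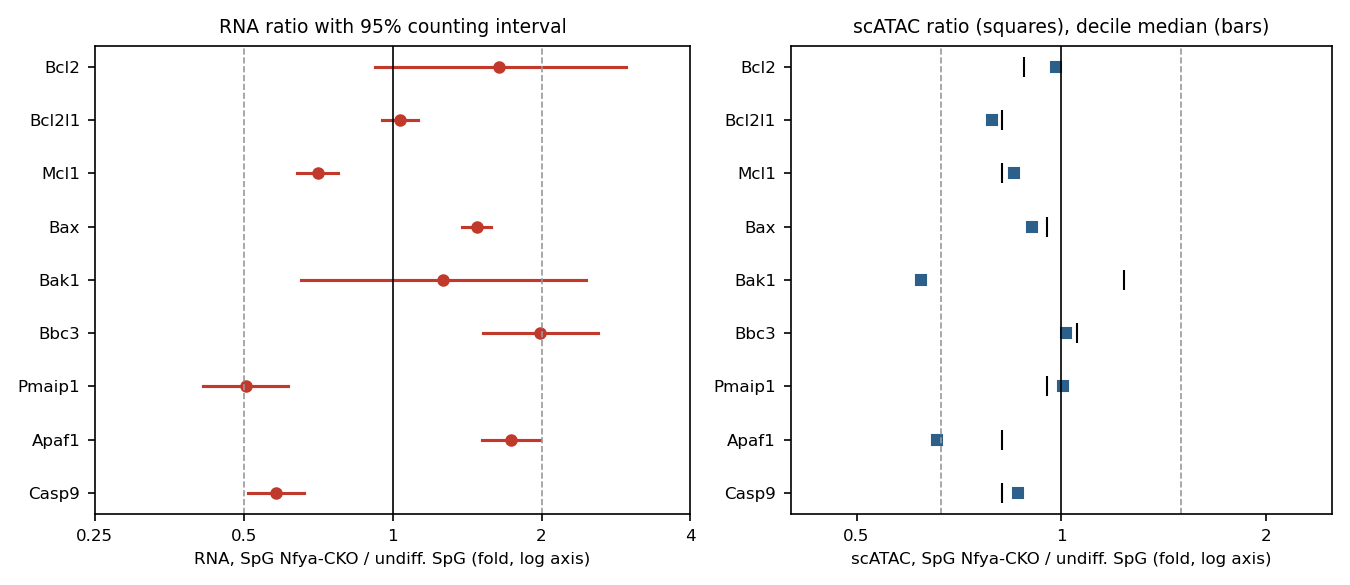
Ratio of SpG Nfya-CKO to undiff. SpG for RNA (left, points with 95% counting intervals) and scATAC signal scaled over all genes (right, squares), on log axes. Dashed lines mark 2-fold for RNA and 1.5-fold for scATAC, and black ticks mark the median ratio of genes in the same decile of scATAC signal. Bax, Bbc3 and Apaf1 lie to the right in RNA and Mcl1, Pmaip1 and Casp9 to the left, while no scATAC ratio exceeds 1.02.

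The sizes were then set beside those of all genes. No regulator was 2-fold apart on the log2 scale with 0.1 added (0 of 9, against 7.17% of genes). None was without the added 0.1, where 12% of genes were higher and 11.7% lower, though Bbc3 (1.98) and Pmaip1 (0.504) were close to the limit. A limit of 0.5 on that log2 scale, chosen after seeing the data, was passed by 5 of 9 (Pmaip1 -0.72, Casp9 -0.67, Apaf1 0.67, Bbc3 0.58 and Bax 0.54), against 29.1% of all genes. In all, 6 of 9 were higher, against 50.9% of genes, and the median log2 ratio was 0.07 over the regulators and 0.01 over all genes. The 0.07 was the value of Bak1, for which a difference was not detectable. The counting intervals do not include variation between animals, which 1 library per condition does not show.

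**Figure D4:**
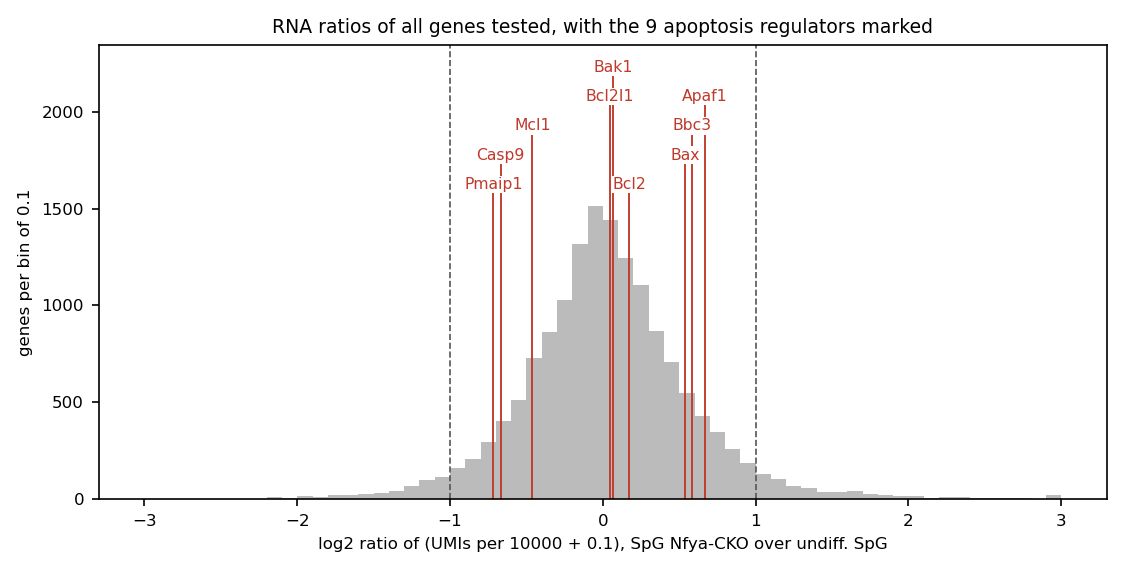
Distribution of log2 ratios of RNA level plus 0.1, SpG Nfya-CKO over undiff. SpG, for the 15250 genes with a mean of at least 0.05, in bins of 0.1 with values beyond 3 placed in the outermost bins. Red lines mark the regulators, from Pmaip1 at -0.72 to Apaf1 at 0.67, all within the dashed lines at 2-fold.

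The sign of the log2 ratio changed with the control population for every regulator but Bax, though beyond counting error only for Pmaip1, Casp9 and Apaf1. For Bcl2, Bcl2l1 and Bak1 the counting interval of the ratio to undiff. SpG included 1. Intervals of the levels overlapped for Mcl1 between SpG Nfya-CKO and diff. SpG (0.853 to 0.989 and 0.703 to 0.872). They also overlapped for Bbc3 between SpG Nfya-CKO and pL (0.173 to 0.237 and 0.214 to 0.269). Against diff. SpG, Bax had a log2 ratio of 0.92, Pmaip1 of 0.72 and Casp9 of 0.54, so that Pmaip1 and Casp9 were higher in SpG Nfya-CKO in that comparison, although diff. SpG held the shallow cells with shared barcodes and the spermatid transcripts given above. Against pL, Pmaip1 was at 0.66, Bax at 0.36, Mcl1 at -0.60 and Apaf1 at -0.28. With 0.1 added, no regulator was 2-fold apart from diff. SpG (17.4% of genes) or pL (13.8%). Without it, Pmaip1 was 2.50 times and Bcl2 0.443 times the diff. SpG level, and 2.27 and 0.471 times the pL level. The share of all genes that far from diff. SpG or pL without the added 0.1 was not computed, so these ratios have no background. The Bax level in SpG Nfya-CKO also exceeded that of pL, the next highest of the 13 populations, beyond counting error (2.37 to 2.59 against 1.84 to 1.99).

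The scATAC signal, scaled to 1000000 over all genes, was lower in SpG Nfya-CKO at 7 of 9 regulators, against 52.6% of genes, and at least 1.5-fold lower at 2 of 9, against 10.2%. None was at least 1.5-fold higher, against 17.2% of genes. The 2 were Bak1, with 5.02 in undiff. SpG and 3.12 in SpG Nfya-CKO (log2 ratio -0.69), and Apaf1, with 51.9 and 34.1 (-0.61). Bax had 26.7 and 24.2, Casp9 54.5 and 47.0, Mcl1 46.5 and 39.6, Bcl2l1 64.9 and 51.4, Bcl2 27.5 and 27.0, Bbc3 15.9 and 16.2, and Pmaip1 24.5 and 24.6. The median ratio was 0.862 over the regulators and 0.978 over 29939 genes, and 5 of 9 lay below the median of genes in their own decile of signal. Mitochondrial genes took 40.6% of the signal in undiff. SpG and 46.0% in SpG Nfya-CKO. On nuclear genes alone, Bak1 was 8.45 and 5.78, Apaf1 was 87.4 and 63.2, and no regulator was 1.5-fold apart. Mean TSS enrichment, the ratio of fragments at start sites to those around, was 12.7 in undiff. SpG and 7.99 in SpG Nfya-CKO. These means were over 1230 and 470 cells with both assays, whereas the scATAC values fitted means over 1258 and 285 cells. The part of TSS enrichment in these ratios was not tested.

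Apaf1 was therefore higher in RNA and lower in scATAC signal in SpG Nfya-CKO, whereas Bax and Bbc3 were higher in RNA with scATAC ratios of 0.907 and 1.02. That of Bbc3 depended on the control, since its 16.2 in SpG Nfya-CKO stood against 32.0 in diff. SpG and 37.2 in pL (log2 ratios of -0.98 and -1.20). On the scale over all genes, Bbc3, Bcl2l1, Mcl1, Bak1 and Apaf1 were at least 1.5-fold lower than in diff. SpG, as were 30.8% of genes, and than in pL, as were 26.4%. On nuclear genes alone, some of these differences fell below 1.5-fold. They were Mcl1 (73.4 in SpG Nfya-CKO, 101.1 in diff. SpG and 89.9 in pL), Apaf1 against diff. SpG (63.2 and 93.9) and Bak1 against pL (5.78 and 7.86). Apaf1 starts within 7 bases of Ikbip on the opposite strand, and Ikbip had almost the same scATAC signal (51.8 and 34.1). RNA of Ikbip was 0.125 in undiff. SpG and 0.156 in SpG Nfya-CKO. Of the 40 lowest scATAC values, 39 in undiff. SpG fitted a mean over 1258 cells and 40 in SpG Nfya-CKO a mean over 285 cells, within 0.001 of whole numbers. The number of reads behind a scATAC value is unknown, and the study's methods define promoter accessibility by coverage around start sites without stating whether this table was made so.

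Other genes of the pathway were read from a list of 52, of which 42 had a mean of at least 0.05. With 0.1 added to both levels, at least 2-fold differences between SpG Nfya-CKO and undiff. SpG were found in 1 gene that was higher (4.09% of all genes) and 1 that was lower (3.08%). The higher one was Bad, a BH3-only gene, with 0.115 and 0.353 UMIs per 10000 (ratio 3.07, 2.43 to 3.88), while other somatic cells had 0.410. Its log2 ratio with 0.1 added was 0.27 against diff. SpG and 0.74 against pL, so the 2-fold limit was not passed there. The lower one was Cyct, the testis form of cytochrome c, with 0.679 and 0.221 (ratio 0.325, 0.273 to 0.385). Among germ cells Cyct was highest in mP/lP, at 1.89, and other somatic cells had 0.344. The part of spermatocyte transcripts in this difference was not tested. For Cyct the log2 ratio was -1.02 against diff. SpG, but -0.19 against pL, which had 0.265. Without the added 0.1, 6 were at least 2-fold higher (12% of all genes) and 2 lower (11.7%), and Bad was not the most different. Ratios were then 4.02 for the BH3-only gene Hrk, 3.97 for Casp8, 2.98 for the effector relative Bok, 2.54 for Tnfrsf10b, 2.31 for Cdkn1a and 0.282 for Bcl2l14. That of Bcl2l14 (0.123 to 0.584) came from about 38 and 9.5 UMIs. Bcl2l14 was highest in RS, at 1.63, and the part of spermatid transcripts in its ratio was not tested. Other somatic cells had 0.278 of Hrk, 0.534 of Casp8 and 0.255 of Bok, each above the 0.169, 0.149 and 0.104 of SpG Nfya-CKO. At any size of difference, 29 of 42 were higher, against 50.9% of genes, with a median log2 ratio of 0.16. By role, 6 of 6 genes read for death receptor signalling were higher, 4 of 5 BH3-only genes, 5 of 7 genes around p53, 3 of 4 caspase inhibitors, 4 of 7 genes of mitochondrial release, 2 of 4 of DNA fragmentation and 1 of 3 effector relatives. The lower of these BH3-only genes was Bcl2l11, which encodes BIM, with 0.529 and 0.319 (ratio 0.602, 0.514 to 0.703). Bmf, a BH3-only gene left out by the limit on the mean, was also lower (0.105 and 0.0573, ratio 0.545, 0.373 to 0.785). Aifm1, which encodes the apoptosis-inducing factor of mitochondria, had 1.28 and 0.836 (ratio 0.655, 0.594 to 0.722). None of the 6 death receptor genes was 2-fold apart with 0.1 added, and the counting intervals of Cflar (ratio 1.03, 0.840 to 1.27) and Tradd (1.53, 0.893 to 2.65) included 1. All but Tnfrsf10b were also higher in other somatic cells than in undiff. SpG, with Cflar at 0.690 against 0.221, Ripk1 at 0.509 against 0.215 and Tnfrsf1a at 0.487 against 0.0853, and the part of such transcripts was not tested.

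Trp53, which encodes the activator p53 known to regulate Bax, Bbc3, Pmaip1 and Apaf1, was singled out after its values were seen. Its RNA was 0.887 UMIs per 10000 in undiff. SpG and 1.76 in SpG Nfya-CKO, a ratio of 1.98 (1.81 to 2.17), with 0.781 in diff. SpG, 0.920 in pL and 1.08 in other somatic cells. Of p53 targets picked because they were higher, Cdkn1a, a cell cycle inhibitor, had 0.113 and 0.262 (ratio 2.31, 1.81 to 2.96) and Tnfrsf10b, a death receptor, had 0.142 and 0.360 (ratio 2.54, 2.05 to 3.15). Other somatic cells had 0.460 of Cdkn1a and 0.0967 of Tnfrsf10b. Mdm2, which encodes the ligase that degrades p53, had 1.70 and 1.94 (ratio 1.14, 1.06 to 1.23). Other targets were lower, as Pmaip1 was (0.504), and Trp53inp1 had 1.10 and 0.762 (ratio 0.695, 0.627 to 0.771). Mdm2 and Trp53inp1 were also named after their values were seen. With 0.1 added, the log2 ratios of Trp53, Cdkn1a and Tnfrsf10b were 0.91, 0.76 and 0.93, each short of 2-fold. Without it, 12% of all genes were at least 2-fold higher. A role of p53 in these levels was not tested, and genes picked for being higher cannot show one.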

How the data were processed

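Per the study's methods, the authors aligned scRNA-seq reads with STAR 2.7.10b to mm10, counted UMIs, removed cells under 500 genes or with at least 5 percent mitochondrial UMIs, removed doublets with DoubletFinder and normalised with Seurat 5.2.1. scATAC-seq reads were aligned with BWA 0.7.12 and analysed with ArchR 1.0.3. Both deposited matrices hold the natural log of 1 plus a mean over the cells of a population per 10000. For RNA this was checked on the 40 lowest values of a population, since 10000 divided by value and number of cells returned the UMI count of a cell (tolerance 0.001). It did for all 40 in undiff. SpG and SpG Nfya-CKO, but for 33 in ES and 19 in the unknown type, and for 39 or 40 elsewhere. The deposited cell tables give UMI, gene and fragment counts, mitochondrial percent, TSS enrichment as a ratio, library and population, and 14 numeric columns were not used.

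Values were exponentiated, less 1, (scipy 1.17.1 and pandas 2.3.3 under Python 3.11.15), and scATAC was scaled to 1000000. A level was turned into UMIs as value times cells times the harmonic mean of UMIs per cell over 10000, and given an exact Poisson interval (for ratios, Clopper-Pearson). RNA ratios used a pseudocount of 0.1 and a limit of 2-fold, scATAC none and 1.5-fold. Named were the 9 regulators, pathway genes past the limit with at least 0.2 in 1 population, 3 similar genes each, and Nfya. Genes outside this rule (Trp53, Cdkn1a, Tnfrsf10b, Trp53inp1, Mdm2, other pathway genes below the limit, markers and overlapping genes) were named after their values were seen. The regulators, lists and limits were chosen with earlier results of these data known. Pooled columns hold no replicates, so no test was run. Some items are not reported here.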

Additional observations from a re-analysis of the deposited data

How the results depend on the processing

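The RNA result for the regulators, with 0 of 9 at least 2-fold apart, held under all 9 alternatives tried (pseudocounts of 0.02, 0.5 and none, the last chosen after seeing the data, 3 other scales and 3 other controls). The 3 other controls were tried only with 0.1 added, so the result against them depends on that setting. Without it, Pmaip1 (2.50 and 2.27 times) and Bcl2 (0.443 and 0.471 times) were more than 2-fold apart from diff. SpG and pL. The median log2 ratio of the 9 regulators was 0.07 and lay between 0.04 and 0.34 except against undiff. and diff. SpG pooled, where it reversed to -0.040. Both the 0.07 and the -0.040 were the value of Bak1, for which a difference was not detectable at this depth. The reversal is therefore a change in 1 sparse gene and does not describe the regulators as a set. Pathway genes at least 2-fold higher numbered 1, and 6 with a pseudocount of 0.02 or none, 0 with 0.5, 5 against diff. SpG and 4 against pL. Those at least 2-fold lower numbered 1, and 2 without pseudocount, against diff. SpG or against the pooled spermatogonia, and 0 with 0.5, which compresses low genes. Bad was not among the higher genes against diff. SpG or pL, nor Cyct among the lower against pL. Regulators 1.5-fold apart in scATAC numbered 2, and 1 with a pseudocount of 1 per 1000000 or centred on all genes, 0 without mitochondrial genes in the scale, and 5 against diff. SpG or against pL. Those 5 were on the scale over all genes. On nuclear genes alone, Mcl1 against both controls, Apaf1 against diff. SpG and Bak1 against pL fell below 1.5-fold. The sign of the RNA ratio changed for 6 regulators against diff. SpG, 5 against pL and 3 against the pooled control, and for none under the other 6 alternatives. Some of these changes of sign were within counting error. No paired analysis was possible because the columns carry no replicate numbers, and no replicate could be left out because each condition is 1 library. Depth limits Bcl2 and Bak1, at 19 to 32 UMIs per population in this comparison.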
